A study of Caenorhabditis elegans with 58 samples.

Results

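The course described here runs from the comma stage through the pretzel stage to the starved first-stage larva (L1) in wild-type Caenorhabditis elegans. Its members are the 6 small-RNA libraries whose titles name those stages in wild type, 2 per stage, of 58 libraries in all. All 276 microRNA (miRNA) arms listed in the count table were taken, without the lines for spike-in RNAs and edited sequences, and 198 arms passed a filter on low counts and were tested. The comma and pretzel stages are named for the shape of the elongating embryo, and the starved L1 had hatched without food.

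A miRNA gene is transcribed into a hairpin, from which a guide strand is loaded into an Argonaute protein while the opposite passenger strand is usually destroyed. The guide finds messenger RNAs mainly through its seed, a short stretch near its 5′ end, so miRNAs that share a seed form a family. In worm embryos the mir-35 family is abundant and needed for viability. A part in the survival of starved larvae and in lifespan is known for mir-71. A larva that hatches without food stops before postembryonic development begins and waits.

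The wild-type animals were strain N2, whole hermaphrodites, and per the labels starved L1 came from embryos left overnight in a buffer without food. Beside them stand 6 libraries at the same stages from an ebax-1(null) strain, CZ9907 with allele tm2321, which lacks a ubiquitin-ligase receptor linked to miRNA decay, and 12 bulk libraries of N2 embryos and L1, 6 per stage, in which the embryos were not sorted by stage. The labels do not say that replicates came from separate cultures, so p-values measure only the spread between these libraries. The sources used here do not say how the staged embryos were collected.

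The 6 libraries held 1530696 to 2802638 miRNA counts. The number of arms with any count was 177 and 161 at comma, 185 and 158 at pretzel, and 145 and 116 in starved L1. Arms read at 0 in 1 replicate while the other held at least 50 counts numbered 4 at comma, 5 at pretzel and 29 in starved L1. Of those 29, 22 were at 0 in starved L1 replicate 2 and 7 in replicate 1, so a 0 in a starved L1 library is weak evidence of a low level. Levels below are CPM, each library's miRNA counts set to a common total, after scaling by TMM, a factor that assumes most arms do not change. Ligation and amplification differ between small RNAs, so levels of different miRNAs are compared only as shares of reads.

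The make-up of the miRNA counts turned over along the course. At comma the most abundant guide was mir-35 with 24.4% of miRNA counts, at pretzel it was mir-51 with 20.4%, and in starved L1 it was mir-71 with 27.3% (means of 2 libraries). The next most abundant at comma were mir-51, mir-56, mir-73 and mir-55. All of these and mir-35 were still the 5 most abundant at pretzel, and in starved L1 the leading 5 were mir-71, mir-56, mir-51, mir-73 and mir-228. The leading 5 arms together took 63.4% at comma, 59.5% at pretzel and 59.7% in starved L1, with mir-35 giving way to mir-71 at the head.

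**Figure D1:**
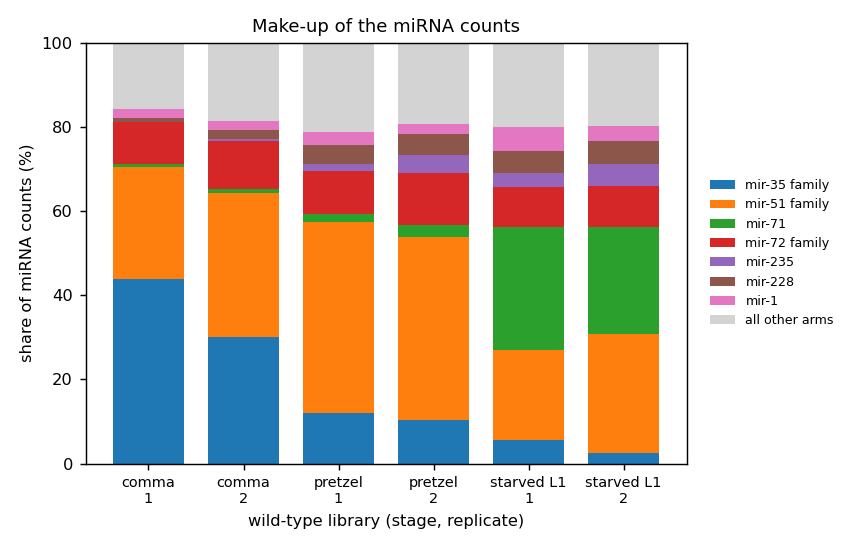
Share of miRNA counts in each of the 6 wild-type libraries (vertical axis, percent, from 0) for the mir-35, mir-51 and mir-72 families, 4 single guides and all other arms. The mir-35 family shrinks from 43.9 and 30.0% to 5.51 and 2.57%, while mir-71 grows from 0.708 and 0.961% to 29.1 and 25.4%.

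The 8 guides of the mir-35 family took 43.9 and 30.0% of miRNA counts in the comma libraries, 12.02 and 10.5% at pretzel, and 5.51 and 2.57% in starved L1. The stages did not overlap, which by itself fixes the order within each replicate number. The means were 37.0 ± 9.88% (SD, n = 2), 11.2 ± 1.09% and 4.04 ± 2.08%. Starved L1 lay 32.9 percentage points under comma, and the two-sided exact permutation p was 0.333, the smallest that 2 libraries against 2 allow. The share of mir-71 moved the other way, from 0.835 ± 0.179% (SD, n = 2) to 2.35 ± 0.596% and 27.3 ± 2.66%. The mir-51 family share went up and down again, with 30.4 ± 5.59%, 44.3 ± 1.34% and 24.9 ± 4.73%, and its pretzel libraries lay above all others. Shares have a common total, so a fall of the mir-35 family by itself raises the shares of all others. A rise of the mir-51 family itself cannot be read from them, and none of its 6 members was called by edgeR in either step. The mir-72 family stayed between 9.49 and 12.5% in the 6 libraries.

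Starved L1 against comma answers which miRNAs differ between the ends of the course. By edgeR's quasi-likelihood test, 22 of 198 arms changed (11.1% of the arms tested), 7 higher (3.54%) and 15 lower (7.58%), at a Benjamini-Hochberg adjusted p under 0.05. The spread was estimated from all 16 staged libraries in 1 fit, since 2 libraries per stage give little of their own. Besides the libraries of both strains at these stages, that fit took in their 2-8 cell embryos, as did the filter and the TMM factors. At an unadjusted p under 0.05 there were 47 arms, and DESeq2 called 19 higher and 28 lower. For each of the 22 the end libraries did not overlap, so the same direction within both replicate numbers was fixed in advance and is no further support. Each also moved the same way in both steps of the course. For the 7 at 0 in both starved L1 libraries the direction of the second step was likewise fixed. Those 7 passed the filter only through other libraries. The count of rises was the less stable: it was 3 without comma replicate 1, 3 without either pretzel replicate and 2 without starved L1 replicate 2, while the count of falls reached 28 without starved L1 replicate 1. The libraries of the ends did not overlap for 114 arms (57.6%), 44 higher (22.2%) and 70 lower (35.4%), so lack of overlap alone says little with 2 libraries per stage.

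The mir-35 family guides led the falls. Of its 8 members, 6 fell, beside 7.58% of all arms called lower, a share that includes them. The median log2 change was -2.83 over the family against -0.27 over all arms tested. This list was chosen with earlier results of these data known, so the contrasts are descriptions. The guide of mir-35 itself, the most abundant member, stood at 401885 and 211759 CPM at comma, 66662 and 76741 CPM at pretzel, and 24935 and 12168 CPM in starved L1. Each stage lay wholly under the one before. Its log2 change was -4.05 (SE 0.65, adjusted p = 1.49e-05), which leaves 6.05% of the comma level, with a 95% interval of 2.44 to 15.0%.

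The guide of mir-37 took the same course, at 54296 and 33478, then 10032 and 10228, then 3714 and 2843 CPM. Its log2 change was -3.74 (SE 0.67, adjusted p = 1.03e-04). Less was lost of the others: mir-40 changed by -2.89 (SE 0.67), mir-39 by -2.85 (SE 0.65), mir-36 by -2.82 (SE 0.73) and mir-42 by -2.63 (SE 0.84), with 13.4 to 16.1% of the comma level left. Their adjusted p-values ran from 0.00268 to 0.0362. The mir-35 guide made up 69.1 and 61.6% of the family's counts at comma and 49.2 and 50.5% in starved L1, so the largest member gave up part of its share within the family. A test of the difference between members was not run.

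Both remaining members were low. The guide of mir-38 read 779 and 537 CPM at comma, 364 and 191 at pretzel, and 82.5 and 136 in starved L1, with a log2 difference of -2.59 (95% interval -4.85 to -0.33) and an adjusted p of 0.125. The guide of mir-41 read 46.8 and 61.6, then 84.9 and 40.3, then 43.7 and 0 CPM, with a log2 difference of -1.30 and an interval of -5.35 to 2.74. At that level the data cannot tell a fall like that of its relatives from no fall.

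**Figure D2:**
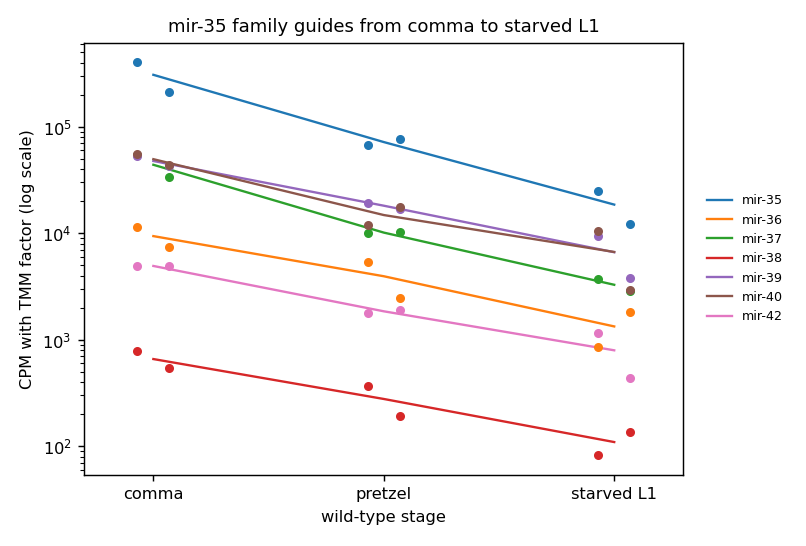
CPM with TMM factor (vertical axis, log scale) of 7 mir-35 family guides in wild type at comma, pretzel and starved L1. Points are single libraries, replicate 1 to the left, and lines join stage means of 2 libraries. The guides of mir-35 and mir-37 drop most steeply, and mir-41 is left out because 1 library is at 0.

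The passenger strands of the family were scarce. The passenger mir-35_5p* was at 0 in all 6 libraries and was not tested. Of the 7 tested, only mir-40_5p* was called, at 268 and 30.0 CPM at comma, 40.2 and 48.3 at pretzel, and 0 in both starved L1 libraries. Its level in starved L1 was at least 171-fold lower than at comma, against a floor of 3 counts over both libraries that covers counting error only. Without comma replicate 1 the value was 34.5-fold. The passenger mir-42_5p* read 1631 and 339 CPM at comma, 137 and 70.3 at pretzel, and 492 and 340 in starved L1, with a log2 difference of -1.24 (adjusted p = 0.558). Its starved L1 libraries overlapped those of comma, unlike those of the mir-42 guide.

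In RefSeq's assembly WBcel235, used here only for the order of genes, mir-35 to mir-41 are neighbours on chromosome II, and mir-42, mir-43 and mir-44 are neighbours elsewhere on it. The guide of mir-43, of the mir-2 family, was at 0 in all 6 libraries. The guide of mir-44 stood at 24133 and 26163 CPM at comma, 20706 and 20489 at pretzel, and 16215 and 22321 in starved L1, a log2 difference of -0.38 (95% interval -1.74 to 0.97) beside the -2.63 of mir-42. Reads of mir-44 and mir-45 are shared, with ratios of 0.962 to 1.02 between them, so neither value can be assigned to one gene.

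Outside the family, 2 further arms with counts in every library fell. The guide of mir-65, a member of the mir-64 family, stood at 25464 and 21802 CPM at comma, 9530 and 11848 at pretzel, and 5525 and 5541 in starved L1. Each stage lay under the one before, and the log2 change was -2.09 (SE 0.64, adjusted p = 0.0266). Its neighbour mir-64 differed by -1.73 (adjusted p = 0.0744), mir-66 by -0.86 (0.471) and mir-229 by 0.48 (0.940), while mir-63, a family member not in that run of genes, differed by 1.57 (0.374). The median of these 5 was -0.86.

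The other was mir-54_5p*, the arm of mir-54 that the table marks as passenger. It read 5834 and 2555 CPM at comma, 1206 and 1334 at pretzel, and 597 and 309 in starved L1, a log2 change of -3.21 (SE 0.97, adjusted p = 0.0253). The guide mir-54_3p read 1212 and 2165, then 2861 and 1984, then 1080 and 2687 CPM, a log2 difference of 0.16 (adjusted p = 0.993). The arm marked as passenger had more reads than the guide in both comma libraries and fewer in both starved L1 libraries. The log2 ratio of guide to passenger was -2.27 and -0.24 at comma and 0.85 and 3.12 in starved L1, a difference of 3.24 by limma (95% interval -0.56 to 7.04, adjusted p = 0.254).

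The remaining 7 called falls were at 0 in both starved L1 libraries. They were mir-40_5p* (above), mir-67_5p*, mir-4813_5p, mir-81_5p*, mir-4808_3p, mir-241_5p and mir-77_5p*, and except for mir-241 they are named because they were called, after their values were seen. Against the floor of 3 counts over both libraries they were lower by at least 22.1-fold (mir-77_5p*) to at least 325-fold (mir-67_5p*). These limits cover counting error alone, not the loss of arms seen between the starved L1 replicates. Leaving out 1 comma library moved that of mir-77_5p* to 8.13-fold (without replicate 2), that of mir-4813_5p from 166 to 52.1-fold and that of mir-67_5p* to 210-fold (both without replicate 1). The arm mir-67_5p* read 384 and 183 CPM at comma and 89.3 and 84.4 at pretzel. The lowest, mir-77_5p*, read 7.09 and 31.5 CPM at comma and 7.44 and 7.34 at pretzel. In wild-type 2-8 cell embryos, outside this course, mir-77_5p* read 4954 and 1343 CPM. At 0 in both starved L1 libraries, all 7 arms passed the filter on low counts only through other libraries, so their calls are descriptions. These calls rest on low counts in the stage with the most missing arms, whose part in them was not tested. Of the 7, only mir-40_5p* and mir-67_5p* were also called under each of the 15 alternatives tried.

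The 7 rises were led by mir-71. Its guide stood at 9374 and 11031 CPM at comma, 18516 and 33332 at pretzel, and 267841 and 237583 in starved L1. Each stage lay above the one before, and the starved L1 libraries stood far apart from those of comma and pretzel. In wild-type 2-8 cell embryos, outside this course, the guide read 109947 and 35781 CPM, above both pretzel libraries. From comma to starved L1 the log2 change of the guide was 4.63 (SE 0.73, adjusted p = 1.49e-05). Its passenger mir-71_3p* also rose, at 20.3 and 44.0, then 359 and 440, then 748 and 1206 CPM, a log2 change of 4.93 (SE 1.32, adjusted p = 0.0101). The log2 ratio of guide to passenger differed by -0.34 between the ends (limma, 95% interval -2.28 to 1.60). It was 8.83 and 7.96 at comma, 5.69 and 6.24 at pretzel, and 8.48 and 7.62 in starved L1, so the pretzel libraries lay below those of both ends. By pretzel the passenger had covered 73.8% of its log2 change and the guide 29.1%, a difference that was not tested.

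The guide of mir-235, a relative of mir-92 known to hold back neural and blast cells in starved larvae, read 420 and 4046 CPM at comma, 14268 and 49744 at pretzel, and 31008 and 48382 in starved L1. Its comma libraries lay far apart but under all later ones, and pretzel and starved L1 overlapped. The log2 change was 4.15 (SE 1.01, adjusted p = 0.00856). The guide of mir-238, a miRNA with a known part in lifespan, read 620 and 1978, then 1950 and 2176, then 5362 and 7915 CPM, a log2 change of 2.35 (SE 0.80, adjusted p = 0.0482). Its comma and pretzel libraries overlapped, and both starved L1 libraries lay above them.

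The other 3 rises were those of mir-248, mir-790 and mir-70. The guide of mir-248 read 9.45 and 101 CPM at comma, 642 and 443 at pretzel, and 759 and 1355 in starved L1, a log2 change of 4.26 (SE 1.43, adjusted p = 0.0451). The guide of mir-790 read 289 and 704, then 573 and 3701, then 3597 and 4047 CPM, a log2 change of 2.94 (SE 0.99, adjusted p = 0.0451). The guide of mir-70 read 325 and 543, then 1303 and 2437, then 3494 and 2789 CPM, a log2 change of 2.85 (SE 0.83, adjusted p = 0.0185). In all 3 the comma libraries lay under both starved L1 libraries, and only for mir-790 did comma and pretzel overlap. Reads before comma were not particular to the mir-71 guide. In wild-type 2-8 cell embryos mir-70 (3597 and 722 CPM) and mir-71_3p* (732 and 56.0) lay above both comma libraries. There mir-235 (10941 and 3625 CPM), mir-238 (4828 and 1133) and mir-248 (322 and 50.1) overlapped comma, and mir-790 (99.9 and 120) lay below it.

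**Figure D3:**
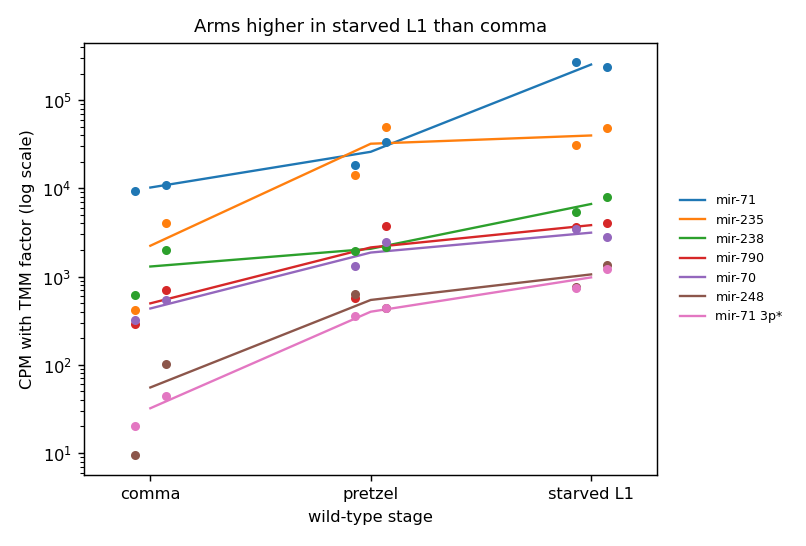
CPM with TMM factor (vertical axis, log scale) of the 7 arms higher in starved L1 than at comma, by wild-type stage. Points are single libraries, replicate 1 to the left, and lines join stage means of 2 libraries. The guide of mir-71 climbs mainly after pretzel, and mir-235 mainly before it.

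Among the called arms with counts in every library, the comma libraries differed from each other in a common order. That order was not counted over all arms, several of these arms share a gene cluster or a hairpin, and mir-42 was nearly equal at 4939 and 4911 CPM. Comma replicate 1 lay under comma replicate 2 for all 7 rises, and above it for all 8 falls that had counts in every library. Both comma libraries lay outside the starved L1 range for each of these arms. The sample ids of replicates 1 and 2 also differ in their prefix, sBY and sKFV, and the source of the difference between the comma libraries was not tested. Several rises were called in at most 7 of the 15 alternatives: mir-790 passed in 4, mir-238 in 5, mir-248 in 6 and mir-70 in 7, against 12 for mir-71_3p* and 15 for mir-71 and mir-235. When libraries were scaled by the summed spike-ins, 2 arms rose and 12 fell.

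Of the 7 miRNAs listed for ageing, stress and starvation, 5 were tested and 3 rose, namely mir-71, mir-235 and mir-238. Over all arms 3.54% were called higher, a share that includes these 3. The median log2 change of the 5 tested was 4.15, beside -0.27 over all arms. The list was chosen with earlier results of these data known, so neither contrast is independent support. The guide of mir-239a was at 0 in the 4 embryo libraries and at 21.0 and 49.5 CPM in starved L1, with an adjusted p of 0.207. The guide of mir-246 read at most 20.8 CPM in any library, and the guides of mir-34 and mir-239b were near 0 and untested.

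The let-7 and lin-4 families time larval development. Of 9 listed members, 7 were tested, 1 fell (mir-241) and none rose, beside 7.58% of all arms lower, mir-241 included, and 3.54% higher. Their median log2 value of 0.00 is that of lin-4, which had no counts at either end, so it does not describe the members that were detected. The guide of mir-241 read 56.2 and 19.8 CPM at comma, 5.95 and 7.34 at pretzel and 0 in both starved L1 libraries. In starved L1 it was at least 43.6-fold lower than at comma by counting error alone, and 22.7-fold without comma replicate 1. In wild-type 2-8 cell embryos, outside this course, it read 1231 and 464 CPM, so it was already far lower at comma. Its neighbour mir-48 read 500 and 385, then 111 and 233, then 140 and 0 CPM, a log2 difference of -2.66 (adjusted p = 0.350). The mir-48 guide had 9644 and 3361 counts in wild-type 2-8 cell embryos, beside 1059 and 526 counts at comma.

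Among the members not called between the ends, the guide of mir-84 read 45.4 and 0 CPM at comma, 46.1 and 21.4 at pretzel, and 532 and 137 in starved L1, a log2 difference of 3.87 (adjusted p = 0.158). The guide of let-7 read 329 and 465, then 63.0 and 465, then 516 and 396 CPM, a log2 difference of 0.20 (95% interval -1.59 to 1.99). The guide of lin-4 reached at most 0.992 CPM in any of the 6 libraries. The guide of mir-237 read 8.98 and 534 CPM at comma, 0 and 0.611 at pretzel and 0 in starved L1, so its fall, called only for the slope, rests on comma replicate 2.

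The mir-51 family, which acts in embryonic development, had 6 members tested and none called. All 6 had a positive log2 difference from comma to pretzel, with a median of 0.42 (all arms 0.01), and all 6 a negative one from pretzel to starved L1, with a median of -0.89 (all arms -0.46). Under the 4 other scalings the first median lay between 0.15 and 1.16 and the second between -1.95 and -0.69. The guide of mir-51 read 184260 and 175622 CPM at comma, 225705 and 207867 at pretzel, and 62332 and 97184 in starved L1. The pretzel libraries lay above and the starved L1 libraries below those of comma. Its log2 difference between the ends was -1.17 (95% interval -2.39 to 0.04, adjusted p = 0.211).

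The other families showed no called guide. Median log2 differences between starved L1 and comma were -0.40 for the 5 mir-58 family members tested, -0.48 for the 3 of the mir-72 family, 0.28 for the 3 of the mir-50 family, -0.38 for the 3 of the mir-44 family, and -0.13 for both mir-87 family members. With libraries scaled by their totals the medians of the mir-58, mir-44 and mir-87 families were above 0, and with TMM factors taken without the mir-35 family or with spike-ins that of the mir-50 family was below 0, so no direction is given for them. The mir-2 family had 3 members tested, with a median of 0.00 that is the value of the undetected mir-43. Its other members were mir-2, with a log2 difference of 1.78 (adjusted p = 0.563), and mir-250, at 8.03 and 25.6 CPM at comma and 0 in both starved L1 libraries (adjusted p = 0.0891). Of the relatives of mir-29, mir-49 differed by -0.93 and mir-83 by 4.39 (adjusted p of 0.558 and 0.219). The guide of mir-83 read 19.4 and 0 CPM at comma and 164 and 248 CPM in starved L1.

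Tissue markers were read to see whether the make-up of the animals moved. The muscle miRNA mir-1 stood at 27120 and 24620 CPM at comma, 29481 and 28641 at pretzel, and 50546 and 33858 in starved L1, a log2 difference of 0.71 (95% interval -0.65 to 2.06). The glial miRNA mir-228 stood at 12775 and 24440, then 44642 and 61688, then 48693 and 52035 CPM, a difference of 1.44 (95% interval -0.02 to 2.89, adjusted p = 0.207). The neuronal miRNAs mir-124, lsy-6 and mir-791 never passed 82.5 CPM and were at 0 in at least 1 library of each end. None of the 5 was called. In whole animals more cells of a type and more RNA per cell cannot be told apart.

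The pretzel libraries divide the course into 2 steps. From comma to pretzel edgeR called 0 of 198 arms (0%), with 27 at an unadjusted p under 0.05 and 19 called by DESeq2. From pretzel to starved L1 it called 1 (0.505%), with 28 unadjusted and 16 by DESeq2. That arm was the guide of mir-71, which changed by 3.29 on the log2 scale (SE 0.69, adjusted p = 0.00381). Without any 1 of the 6 libraries the first count was 1 to 7 and the second 5 to 25, so neither is firm.

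The arms called between the ends differed in where the log2 change lay. By pretzel the 8 falls with counts in every library had covered 44.4 to 60.2% of their log2 difference with TMM, about evenly over both steps. Such a split depends on the scaling between stages. Over the 8 mir-35 family guides the median was -1.40 in the first step and -1.48 in the second with TMM. With spike-ins, an uncertain scaling, these medians were -0.58 and -2.65, so the larger part then lay after pretzel. Of the 7 rises, 5 had covered over 70% by pretzel, led by mir-235 with 92.5%, and 2 under 30%, namely mir-71 with 29.1% and mir-238 with 28.4%. For mir-235 the log2 difference was 3.84 in the first step (adjusted p = 0.103) and 0.31 in the second (0.969), and for mir-71 it was 1.35 (0.320) and 3.29 (0.00381). The departure of the pretzel stage from the midpoint of the ends was 1.77 for mir-235 (95% interval 0.24 to 3.29) and -0.97 for mir-71 (-2.11 to 0.18), and neither passed the adjusted threshold.

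**Figure D4:**
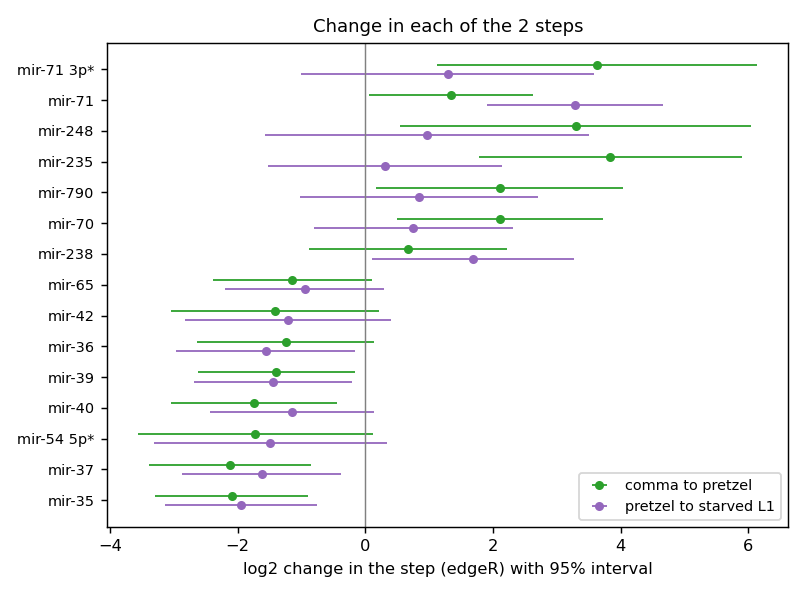
Log2 change by edgeR with 95% interval (horizontal axis) from comma to pretzel and from pretzel to starved L1, for the 15 arms called between the ends that had counts in every library. With TMM scaling the falls divide about evenly, whereas most of the difference of mir-235 lies in the first step and most of that of mir-71 in the second.

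Comma and pretzel did not overlap for 86 arms (43.4%), and pretzel and starved L1 for 85 (42.9%). Of those, the arms with the largest differences in the first step and a mean log2 CPM of at least 5 are given as values, since none passed. After mir-235 and mir-71_3p*, they were mir-245 with 3.55 (6.61 and 76.9 CPM at comma, 193 and 784 at pretzel), mir-244 with 3.46 and mir-248 with 3.30 on the log2 scale. Below 0 they were mir-44_5p* with -3.47, mir-41_5p* with -3.35, mir-42_5p* with -3.25, mir-37 with -2.12 and mir-35 with -2.10. In the second step the guide of mir-230 stood out beside mir-71, at 33.7 and 86.2 CPM at pretzel and 1023 and 552 in starved L1, a log2 difference of 3.71 (95% interval 0.94 to 6.48, adjusted p = 0.165). The guide of mir-84 differed by 3.31 in that step.

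A slope over the 3 stages, coded 0, 1 and 2, was called for 18 arms (9.09%), 6 upward (3.03%) and 12 downward (6.06%), of which 14 were also called between the ends. The guide of mir-35 lost 2.02 log2 units per stage (SE 0.29, adjusted p = 5.00e-06) and that of mir-71 gained 2.32 (SE 0.33). Called for the slope alone were mir-230 (1.85 per stage, adjusted p = 0.0463), mir-237, mir-51_3p* and mir-2210_3p, the last 3 at a mean log2 CPM under 2 and chosen after their values were seen. The guide of mir-235 was not among the slopes (adjusted p = 0.0996).

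Some arms could stand higher or lower at pretzel than at both ends. Of 198 arms, 1 (0.505%) departed from the midpoint of the ends, with 15 at an unadjusted p under 0.05 and 7 by DESeq2. It was the guide mir-788_3p, named after its values were seen, at 0 in both comma libraries, 215 and 59.3 CPM at pretzel, and 0 in both starved L1 libraries (adjusted p = 0.0276). With counts of 0 in all 4 libraries of the ends, it passed the filter on low counts through the stage in which it was high, so its call is a description. In ebax-1(null) the same arm had 6 and 1 counts at comma, 243 and 175 at pretzel and 0 in both starved L1 libraries, again with counts mainly at pretzel. Those libraries were part of the same fit and helped to set its spread, so they are not a separate test. The passenger mir-788_5p* had 0 and 8 counts at comma, 347 and 200 at pretzel, and 97 and 174 in starved L1 of wild type. The call for mir-788_3p was lost with RLE factors, with the replicate block and with the 6 wild-type libraries alone, where 0 arms departed. The count of departures was 6 without starved L1 replicate 1, 2 without replicate 2, and 3 without either comma replicate.

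The ratio of guide to passenger needs no scaling between libraries. It was tested by limma in 55 hairpins and was higher in starved L1 than at comma in 3 (5.45%), those of mir-259, mir-252 and mir-81, and lower in 0, with 17 of either direction at an unadjusted p under 0.05. All 3 had a passenger at 0 in at least 1 starved L1 library. The guide of mir-252 had 770 and 1117 counts at comma and 6235 and 2932 in starved L1, while its passenger had 78 and 63 counts and then 0 and 0. With a mean of at least 50 counts for each arm required, no ratio was called, but that filter left out all 3 of these hairpins, so it did not retest them. The count of called ratios also moved when 1 library was left out, so it is not firm.

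The same arms were read in the bulk wild-type libraries, which share no sample with the course. There 118 of 213 arms changed from embryo to L1 (55.4%), 54 higher (25.4%) and 64 lower (30%). Of the 22 arms called in the course, 20 were tested in bulk, 19 had the same sign, 17 were called in the same direction and 0 in the opposite one. Over all 191 arms tested in both, 147 had the same sign (77.0%).

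The rises differed in how they stood in bulk. For mir-71 the log2 change was 4.31 in bulk and 4.63 in the course, and for mir-238 it was 2.87 and 2.35. For mir-235 it was 0.59 in bulk (adjusted p = 0.0877) and for mir-790 0.34 (adjusted p = 0.636), so both rises of the staged course did not pass there. Bulk embryos held 907 to 2445 CPM of mir-235 and bulk L1 1464 to 3258, against 31008 and 48382 in the staged L1 libraries, values scaled separately in each set. In bulk the mir-35 guide fell by 5.03, mir-37 by 5.29, mir-36 by 5.50, mir-39 by 4.67 and mir-40 by 4.29 on the log2 scale, each a larger value than in the course, and mir-42 fell by 2.45, a smaller one than its 2.63. Bulk embryos of mixed age are not the comma stage, so the sizes of the changes are not compared by a test.

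**Figure D5:**
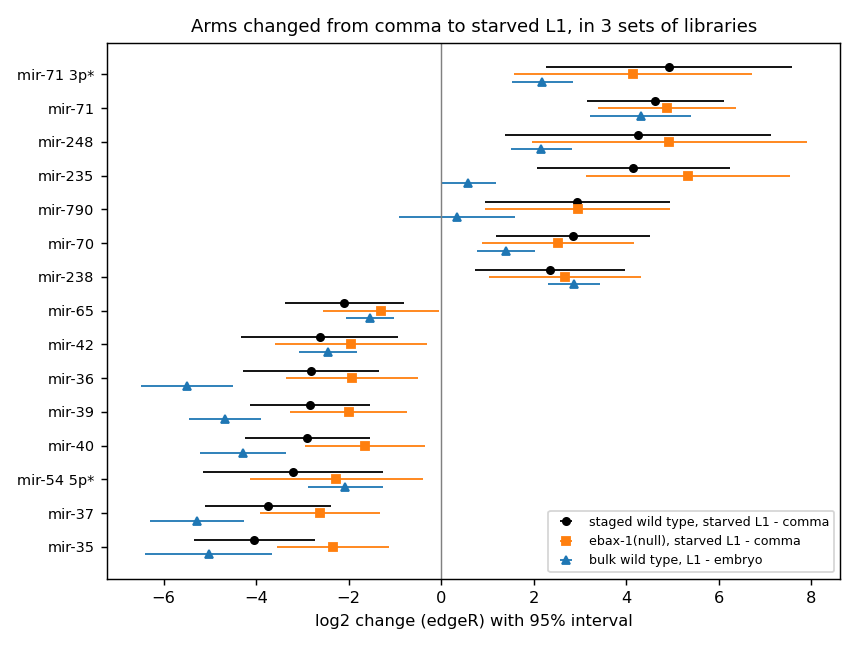
Log2 change by edgeR with 95% interval (horizontal axis) for the 15 arms called in wild type that had counts in every library, beside the same contrast in ebax-1(null) and L1 minus embryo in bulk wild type. All 15 point the same way in the 3 sets, and the bulk values of mir-235 and mir-790 lie nearest 0.

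The ebax-1(null) course gave the same signs for 21 of the 22 arms, against 131 of all 198 (66.2%), and 6 of the 22 were called there in the same direction. That course had 7 called arms (3.54%), 4 higher (2.02%) and 3 lower (1.52%). A test of the difference between the courses called 0 of 198 arms (0%) by edgeR, with 16 at an unadjusted p under 0.05 and 4 by DESeq2. That count was 6 without wild-type starved L1 replicate 1, and 1 without starved L1 replicate 2 or comma replicate 1. In ebax-1(null) the guide of mir-35 stood at 427476 and 260282 CPM at comma, 206230 and 113731 at pretzel, and 60264 and 75917 in starved L1. At comma the strains overlapped, and at pretzel and in starved L1 both ebax-1(null) libraries lay above both wild-type ones.

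Of the comma level of mir-35, 19.8% was left in starved L1 of ebax-1(null) and 6.05% in wild type. The log2 difference between the courses was 1.71 (95% interval 0.07 to 3.36), with an adjusted p of 0.582. For the other family guides it ran from -0.68 for mir-41 to 1.24 for mir-40, none past the threshold. It was also above 0 for the falls outside the family with counts in every library, mir-65 (0.80) and mir-54_5p* (0.94). Most of these arms were called by the same wild-type values that are subtracted here, so nothing is read from the signs. For mir-71 the courses differed by 0.25 (95% interval -1.54 to 2.04) and for mir-235 by 1.19 (-1.41 to 3.79). These intervals allow differences of more than 1 log2 unit either way for the rises.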

How the data were processed

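Small RNAs of whole worms were counted per miRNA arm. Estimated counts, with no scaling, are what the authors deposited; 14 values in the staged libraries end in 0.5 and were rounded. Tools named in the submitters' processing notes, with no order, are HTSeq 0.13.5, Bowtie2 2.4.4, cutadapt 3.4, SAMtools 1.13 and an unversioned DESeq2. The genome build and strand setting are not given in the sources used here.

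All 16 staged libraries were fitted together in edgeR 4.0.16 (R 4.3.3; robust quasi-likelihood, 1 mean per group, 8 residual degrees of freedom, TMM factors, filterByExpr with minimum count 10 and total 15). P-values were adjusted over the 198 arms kept, with a threshold of 0.05; the biological coefficient of variation was 1.04. Arm ratios, log2 of guide over passenger counts with 0.5 added, were tested in limma 3.58.1 for hairpins with a mean of at least 10 counts per arm. The 12 bulk libraries had their own edgeR fit. DESeq2 1.42.0 was an alternative. Scripts were tested on simulated data, and figures were drawn with matplotlib 3.10.9 in Python 3.11.15 (pandas 2.3.3). Replicates differed by more than counting error, with a lowest chi-square per degree of freedom of 102. Floors of 3 counts cover counting error only, since there were no molecular identifiers.

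The members and the 13 lists were chosen with earlier results of these data known. Named arms were list members, the 5 most abundant per stage, up to 10 called arms each way between the ends (up to 5 elsewhere) that average at least 5 in log2 CPM and whose stages do not overlap, and, where fewer than 5 passed, the largest differences that do not overlap, given as values. Of the listed miRNAs, mir-793, mir-58, mir-58b, mir-1834 and mir-356 are not analysed here; mir-794, mir-247 and mir-797 did not pass the filter.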

Additional observations from a re-analysis of the deposited data

Results flagged for a closer look

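Among the 12 bulk libraries, 40 sets of 6 replicate values were examined for 1 library far from the others, and 7 such sets were found, where chance gives about 1 in 20. In bulk embryo replicate 3, mir-35 read 31793 CPM against 133068 to 204854 in the others, and mir-40 read 11945 CPM against 22883 to 29984. In bulk embryo replicate 4, mir-67_5p* read 32.2 CPM against 104 to 163. In bulk L1 replicate 1, mir-36 read 1230 CPM against 171 to 314, and in replicate 2, mir-65 read 5854 CPM against 3430 to 4157. In bulk L1 replicate 6, mir-790 read 13546 CPM against 1487 to 2874, and mir-4813_5p read 56.3 CPM against 6.19 to 13.1. Groups of 2 libraries, as in the staged course, cannot be examined this way.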

How the results depend on the processing

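No called arm changed direction under any of the alternatives. Those called in wild type under all 15 were mir-35, mir-36, mir-37, mir-39, mir-40, mir-40_5p*, mir-67_5p*, mir-71 and mir-235. Counts of calls moved more, and the cause was not tested. Arms higher in starved L1 than at comma numbered 7; they were 14 with library totals, 4 with TMM factors without the mir-35 family, 2 with spike-in scaling, 19 with DESeq2, 3 with no filter, 14 with at least 50 counts in every library of a stage, and 2 to 6 with 1 library left out. Arms lower numbered 15, and were 28 with DESeq2 and 16 to 28 with 1 library left out. From comma to pretzel the count of 0 became 4 with library totals, 2 without the family, 1 with spike-ins, 19 with DESeq2, 5 with no filter and 1 to 7 with 1 library left out. From pretzel to starved L1 the count of 1 became 7, 7, 3, 16 and 25 under those settings and 5 to 25 with 1 library left out. Slopes, 18, were 4 with spike-ins, 44 with DESeq2 and 13 to 24 with 1 library left out. Departures at pretzel, 1, were 0 with RLE factors, 2 with library totals, 3 with spike-ins, 7 with DESeq2, 5 with no filter, 0 with the 6 wild-type libraries alone and 1 to 6 with 1 library left out. Differences between the strains, 0, were 4 with DESeq2 and 0 to 6 with 1 library left out. Ratios called, 3, were 0 with a mean of at least 50 counts, a filter that left out all 3 of those hairpins. That count also moved with 1 library left out. The fall of the family share was 24.3 to 39.9 percentage points throughout.

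Relative to TMM the median of all arms moved by 0.04 log2 units with RLE factors, 0.38 with library totals, -0.51 without the mir-35 family and -0.23 with spike-ins, and called arms split into 10 higher and 17 lower, 14 and 16, 4 and 18, and 2 and 12. Spike-ins were 0.155 to 0.534 of miRNA counts and their mix was not constant, so that scaling is uncertain. With the replicate block 4 arms were higher and 15 lower, and 0 departed at pretzel. Same-numbered libraries of the 3 stages deviated together weakly (r of 0.095 to 0.122 across arms, which are not independent). Sample ids of the staged libraries begin with sBY in replicate 1 and with sKFV in replicate 2. The labels do not say what such a prefix stands for, and the numbers were not taken as pairs. Precision is lowest for arms with few counts. Starved L1 had the most arms at 0 in 1 replicate only, 29, at 1660952 and 1530696 miRNA counts beside 1565933 in comma replicate 2, and the cause was not tested.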

Other observations

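Some guides differed between the staged and the bulk L1 libraries, which were scaled separately and can be set beside each other only as levels. The guide of mir-58a, a bantam relative, read 3557 and 3086 CPM in staged L1 and 39660 to 72554 CPM in the 6 bulk L1 libraries. The guide of mir-70 read 3494 and 2789 CPM in staged L1 and 8256 to 26883 CPM in bulk. The guide of mir-73 read 63831 and 69419 CPM in staged L1 and 12537 to 19808 CPM in bulk, and that of mir-51 read 62332 and 97184 CPM against 15086 to 23351. In each case the ranges did not overlap, in contrast to mir-228, at 48693 and 52035 CPM in staged L1 and 36309 to 62920 in bulk. These guides were chosen after their values were seen, and the sets of libraries differ in more than one way that cannot be told apart here.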
